A study of Mus musculus with 6 samples.

Results

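Integrins are adhesion receptors made of 1 alpha and 1 beta chain, and the 10 genes described here encode the chains that leukocytes use most or that pair with them. They were chosen by gene symbol: Itgax (CD11c), Itgam (CD11b), Itgal (CD11a), Itgb2 (CD18), Itgb2l, Itga4 (CD49d), Itgb1 (CD29), Itgb7, Itgav (CD51) and Itgb5. All 10 were found among the 57132 genes of the deposited table, and all 10 passed the filter on low counts. The measurements were mRNA sequencing libraries of C57BL/6 mouse bone marrow cultured with the cytokine GM-CSF, taken on day 5. One group, 0Q, grew without queuine, and the other, 100Q, grew with 100 nM queuine. Both were kept in dialyzed serum with GM-CSF, and each had 3 libraries. Queuine is the nutrient base from which cells build queuosine, a modified nucleoside in the anticodon of the tRNAs that read Asn, Asp, His and Tyr codons. The labels give female mice of 6 to 8 weeks and triplicate plating. Whether different animals supplied the wells is not stated. P-values therefore set the difference between groups only against the spread of these libraries, which may be technical.

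The beta2 chain CD18 binds CD11a, CD11b or CD11c to form LFA-1, Mac-1 (complement receptor CR3) and CR4, which hold leukocytes to ICAM proteins, fibrinogen and complement fragments. A chain without its partner is poorly carried to the surface, so the receptors at the membrane depend on both. CD11c is the usual marker of mouse dendritic cells and CD11b marks myeloid cells at large. CD49d pairs with CD29 or beta7 to bind VCAM-1 or MAdCAM-1. CD51 pairs with CD29, beta5 or other beta chains to bind matrix proteins that carry an Arg-Gly-Asp sequence, and also latent TGF-beta.

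Ligands are held through a metal ion, and a short codon pattern marks this site in the inserted domain of CD11a, CD11b and CD11c and in the related domain of the beta chains. The pattern searched was an Asp codon, any codon, a Ser codon, any codon and a Ser codon, in frame on the coding strand. It was found in 8 of the 10 coding sequences, and in 18.6% of the 9509 coding sequences of all tested genes, so it is common. The stretches shown here, of 39 bases each, are shown because they place codons read by queuosine tRNAs at the part of these receptors that holds the ligand. Capitals mark the Asn, Asp, His and Tyr codons. They were read from the GENCODE M39 canonical transcripts on GRCm39, and each lies within 1 exon.
Itgax (chr7:127732205-127732243, plus strand, exon 6): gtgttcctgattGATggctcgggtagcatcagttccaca
Itgam (chr7:127675230-127675268, plus strand, exon 6): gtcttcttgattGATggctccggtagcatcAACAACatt
Itgal (chr7:126900322-126900360, plus strand, exon 6): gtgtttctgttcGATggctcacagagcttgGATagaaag
Itgb2 (chr10:77383019-77383057, plus strand, exon 5): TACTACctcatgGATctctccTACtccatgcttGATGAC
Itgb1 (chr8:129439748-129439786, plus strand, exon 5): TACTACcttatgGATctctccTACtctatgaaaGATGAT
Itgb7 (chr15:102132810-102132848, minus strand, exon 4): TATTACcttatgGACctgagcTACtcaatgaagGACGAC
Itgb5 (chr16:33696231-33696269, plus strand, exon 4): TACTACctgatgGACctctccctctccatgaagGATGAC
Itgb2l (chr16:96236893-96236931, minus strand, exon 5): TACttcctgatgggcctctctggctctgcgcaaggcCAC

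The Itgam stretch matched that of Itgax at 30 of 39 bases and the Itgal stretch at 23. In Itgam the pattern also began at codons 67 and 724. The match most like that of Itgax was the one shown, so its likeness owes something to that choice. Among the beta chains, 33 bases of Itgb1, 32 of Itgb5 and 28 of Itgb7 matched those of Itgb2. In Itgb2l the pattern was not found in the coding sequence, and the stretch shown is the in-frame one most like that of Itgb2, with 24 matching bases. It held 2 codons of the Asn, Asp, His and Tyr class, against 6 in Itgb2, Itgb1 and Itgb7 and 5 in Itgb5. Itga4 and Itgav have no inserted domain. The pattern occurred in Itga4 at another place and was not found in Itgav.

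Over whole coding sequences the 10 genes differed in how they spell these amino acids. Of the Asn, Asp, His and Tyr codons, 28.4% ended in U in Itgb2l and 28.6% in Itgb2. In Itgb5, Itgal, Itgb7 and Itgax the share was 30.1%, 34.6%, 35.8% and 39.6%. It was 45.7% in Itgam, 50.6% in Itgav, 51.5% in Itga4 and 65.9% in Itgb1. Over 8702 tested genes the median was 44% and the quartiles 35% and 53.7%, so 4 of the 10 lay above the median and Itgb1 at the 95th percentile. Itgb1 owed this mainly to asparagine, with 47 AAU codons against 11 AAC. These are properties of the genes. The libraries measured mRNA levels, and translation of the codons was not measured by them.

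Itgal, Itgam and Itgax lie in that order on chromosome 7 with Itgad, a further beta2 partner, behind them, all on the plus strand of GRCm39. Itgam (127661808 to 127717753) ends 10.9 kb before Itgax (127728668 to 127749829), and Itgax ends 3.72 kb before Itgad. Itgal (126895432 to 126934320) lies 727 kb ahead of Itgam. For Itgad no library held a count, although its neighbour Itgax was well expressed in each. In the deepest library a floor of 3 counts corresponds to 0.159 CPM, so a level near or below it could have been missed. CPM is the usual depth-scaled count, here with TMM-adjusted library sizes. The beta genes are scattered, with Itgb2 on chromosome 10 (77366086 to 77401542), Itgb1 on 8 (129411876 to 129460618), Itgb7 on 15 (102124429 to 102140379), and Itgb2l (96223488 to 96244841) and Itgb5 (33649988 to 33771137) far apart on 16. Itga4 (79085660 to 79163467) and Itgav (83554403 to 83637260) are on chromosome 2.

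Sequencing depth ran from 3675918 to 6755367 counts per 0Q library and from 4484785 to 19386533 counts per 100Q library. For the dendritic cell label 12 marker genes were read, all detected, with summed levels of 1115 to 1403 CPM in 0Q against 1090.0 to 1376 CPM in 100Q. Most of the sum came from H2-Aa, Mgl2, H2-Ab1 and H2-Eb1, with means of 578, 233, 220 and 125 CPM over the 6 libraries. The sum alone therefore does not settle the label. Zbtb46 and Flt3, the lowest of the 12 markers by their mean, stayed at or below 3.16 and 5.48 CPM in every library. Of these 12 markers 9 had an estimate above 0 and 3 below 0, with a median log2 fold change of 0.09. Of the 12, 0 passed the test. An unadjusted p under 0.05 was found for 1 of the 12, Kmo, and for 2.93% of all tested genes. Kmo, a kynurenine pathway enzyme, had 11.9, 16.8 and 10.0 CPM in 0Q and lower values of 7.22, 5.27 and 6.13 CPM in 100Q. Its estimate was on the side opposite to Itgax (log2 fold change -1.06, SE 0.42, unadjusted p = 0.0205 and adjusted p = 0.999 by edgeR). The cultures also carried RNA of other myeloid cells. The 12 neutrophil lineage markers summed to 17362 to 20326 CPM in 0Q against 14588 to 17579 CPM in 100Q. For 9 mast cell, basophil and eosinophil markers the sum was 1816 to 2053 CPM in 0Q against 1547 to 2016 CPM in 100Q. Sums of 10 macrophage markers were 1268 to 1475 CPM in 0Q against 1110 to 1499 CPM in 100Q, much like the dendritic sums. For 5 monocyte markers they were 17807 to 19713 CPM in 0Q against 17909 to 21494 CPM in 100Q, mostly from Lyz2. Which cells carried the RNA of each list was not tested. The 6 T cell markers summed to at most 5.90 CPM with Cd3e at 0, and 4 NK markers to at most 1.71 CPM. Sums of 5 megakaryocyte and platelet markers were 386 to 454 CPM in 0Q against 350 to 367 CPM in 100Q, mostly from Pf4. Over the 6 libraries, 6 B cell markers summed to 23.3 to 31.7 CPM and 5 erythroid markers to 37.1 to 54.8 CPM. The 6 stromal and endothelial markers reached at most 3.38 CPM. In bulk samples such as these, fewer cells of a type and less RNA per cell cannot be told apart. In 0Q replicate 1, levels of longer genes were lower than in the other libraries, with a Spearman rank correlation of -0.20 between a gene's deviation and its exonic length across 6250 genes. In the other 5 libraries this correlation lay between -0.05 and 0.14. Its part in the results was not tested beyond the length correction given below.

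Per kilobase of exon the beta2 system dominated. Itgb2 stood at 200.1 ± 37.5 CPM per kilobase over the 6 libraries (SD, n = 6), with 161 to 251 in single libraries. Itgam followed at 50.4 ± 7.44, then Itgax at 24.6 ± 6.16, Itgb1 at 23.2 ± 3.09 and Itgb2l at 14.5 ± 5.43 CPM per kilobase. Itgb2 lay above Itgam, and Itgam above Itgax, in all 6 libraries with no overlap of their ranges. Itgax, Itgb1 and Itgb2l were neighbours whose ranges overlapped, so their order is not settled. Itgal was lower at 4.84 ± 0.941 CPM per kilobase, below Itgb2l and above Itgb7 in every library.

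The alpha4, beta7, alphav and beta5 chains formed the low end. Itgb7 had 1.93 ± 0.526, Itgav 1.58 ± 0.627, Itga4 0.899 ± 0.353 and Itgb5 0.889 ± 0.452 CPM per kilobase, and the range of each overlapped the next. With the longest coding transcript as length, Itgav (2.64) stood above Itgb7 (2.01), and no other rank among the 10 moved. Summed over Itgax, Itgam and Itgal, the beta2 partners reached 0.212 to 0.525 of the Itgb2 level per kilobase, so in each library the common beta chain was the more abundant mRNA. The lowest value, 0.212, was that of 0Q replicate 1, and the other 5 lay from 0.358 upward.

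**Figure D1:**
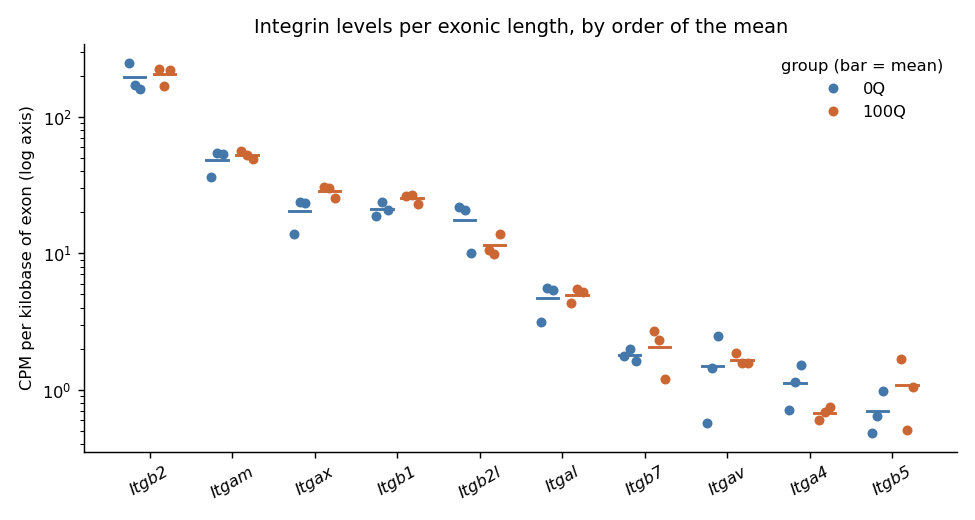
Level of each integrin mRNA per kilobase of exon (CPM per kilobase, log axis) in each of the 3 libraries of 0Q and of 100Q, ordered by the mean over all 6, with bars at the group means. Itgb2 lies at 161 to 251 in every library, above Itgam at 36.1 to 56.8, while Itga4 and Itgb5 reach at most 1.67.

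The comparison of 100Q with 0Q asked whether queuine supply changes these mRNAs. None of the 10 passed the test, and neither did any other gene. With edgeR's quasi-likelihood test 0 of the 10 reached an adjusted p under 0.05, where the share among all 10554 tested genes was also 0%. At an unadjusted p under 0.05 there were 2, Itgax with a higher and Itgb2l with a lower estimate in 100Q, where 2.93% of all genes had such a p, 1.77% with a higher and 1.16% with a lower estimate. The count of 2 was 0 without 100Q replicate 1 or 2 and 1 without 0Q replicate 2, and without 0Q replicate 1 the 2 were Itgb2 and Itga4. DESeq2 and limma-voom called 0 of the 10 as well, and each gave 2 at an unadjusted p under 0.05. Estimates were above 0 for 8 of the 10 and below 0 for Itgb2l and Itga4. Their median log2 fold change was 0.14, and that of all tested genes was 0.00. Every adjusted p of the 10 was 0.999.

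**Figure D2:**
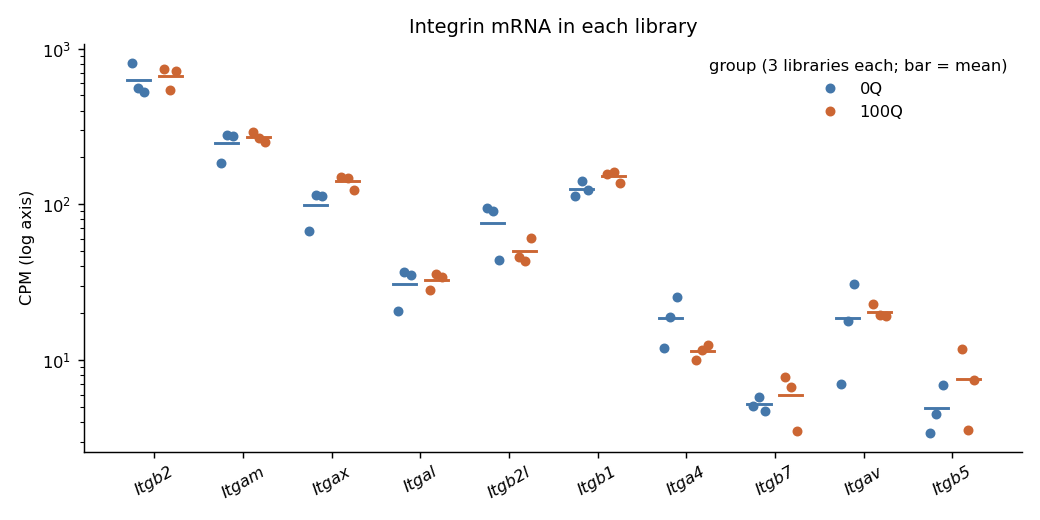
CPM of each integrin (log axis) in the 3 libraries of 0Q and the 3 of 100Q, with bars at the group means. For Itgax the 100Q libraries (123 to 150.0 CPM) lie above the 0Q libraries (67.6 to 115 CPM), and for the other 9 genes the groups overlap.

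CD11c mRNA showed the clearest separation. Itgax (ENSMUSG00000030789) had 67.6, 115 and 113 CPM in 0Q replicates 1, 2 and 3 and 150.0, 147 and 123 CPM in 100Q replicates 1, 2 and 3. The groups did not overlap, and 0Q replicate 1 was far below all others. Such separation occurred for 8.24% of all tested genes, 4.41% with 100Q above and 3.84% with 100Q below, and for 1 of the 10 integrins, Itgax. Group means were 98.6 ± 26.8 and 140.2 ± 14.7 CPM (SD, n = 3 each), 1.42-fold higher in 100Q (95% interval 1.07 to 1.88). The log2 fold change was 0.51 (SE 0.19), with an unadjusted p of 0.0174 and an adjusted p of 0.999 by edgeR. Without 0Q replicate 1 the log2 fold change was 0.30 (SE 0.16) and the unadjusted p 0.0898. With each library's length trend removed it was 0.49.

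CD11b mRNA stayed near its mean. Itgam (ENSMUSG00000030786) had 185, 278 and 274 CPM in 0Q against 290.5, 268 and 251 CPM in 100Q. Apart from 0Q replicate 1, the other 5 libraries lay between 251 and 290.5 CPM and the groups overlapped. Its log2 fold change was 0.13 (SE 0.15, 95% interval -0.19 to 0.46), so a change beyond 1.37-fold upward or to below 0.877-fold lay outside the interval. Without 0Q replicate 1 the estimate was -0.03. The annotated gene Gm49368 overlaps Itgam on the same strand, and reads may be divided between them. It had 366 counts in all.

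A ratio of 2 genes within a library does not depend on how libraries are scaled to each other. Itgax reached 0.386, 0.435 and 0.435 of the Itgam level per kilobase in 0Q and 0.544, 0.579 and 0.518 in 100Q. The 100Q libraries all lay above the 0Q libraries, 0Q replicate 1 included, with means of 0.419 ± 0.0286 and 0.547 ± 0.0303 (SD, n = 3 each). This ratio was picked out after its values were seen. Among all pairs of genes at a mean of 100 CPM or more, 8.51% had ratios without overlap between the groups. As a share of the reads of both genes, Itgax took 26.8% to 29.2% in 0Q and 32.9% to 35.4% in 100Q. The nearest libraries, 0Q replicate 3 at 29.2% (95% exact binomial interval 26.9% to 31.7%) and 100Q replicate 3 at 32.9% (31.8% to 34.1%), had intervals that just failed to meet. Such intervals cover counting error only. With the reads of Gm49368 added to Itgam the ratio was 0.370 to 0.427 in 0Q and 0.5005 to 0.555 in 100Q.

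CD11a and the common beta2 chain did not separate. Itgal (ENSMUSG00000030830), the alpha chain of LFA-1, had 20.8, 36.7 and 35.3 CPM in 0Q against 28.3, 35.8 and 34.2 CPM in 100Q. Its log2 fold change was 0.09 (SE 0.27). Itgb2 (ENSMUSG00000000290) had 813, 559 and 524 CPM in 0Q against 734, 545 and 720.5 CPM in 100Q. Here 0Q replicate 1 was the highest of all 6 libraries, where it was the lowest for Itgax, Itgam and Itgal. The log2 fold change of Itgb2 was 0.08 (SE 0.16, 95% interval -0.25 to 0.41). Without 0Q replicate 1 it was 0.30 (unadjusted p = 0.0453 and adjusted p = 0.999 by edgeR), and Itgal then had -0.13.

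Itgb2l (ENSMUSG00000000157) encodes a beta chain related to CD18, and in mice it is known from neutrophil precursors and neutrophils. It had 94.8, 90.0 and 43.9 CPM in 0Q against 46.2, 43.2 and 60.3 CPM in 100Q. The groups overlapped, since 0Q replicate 3 was as low as the 100Q libraries and only 0Q replicates 1 and 2 were high. The log2 fold change was -0.61 (SE 0.25), 0.655-fold (95% interval 0.452 to 0.949), with an unadjusted p of 0.0275 and an adjusted p of 0.999 by edgeR. Without 0Q replicate 3 it was -0.88 (unadjusted p = 0.00113, adjusted p = 0.999), and without 0Q replicate 1 it was -0.43 (unadjusted p = 0.127). Reads that match both Itgb2l and Itgb2 could be divided between them, so the level of Itgb2l is uncertain.

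Estimates of 11 of 12 neutrophil lineage markers were below 0, as that of Itgb2l was, and Cxcr2 had 0.36. The median log2 fold change was -0.20. An unadjusted p under 0.05 with a lower estimate was found for 3 of the 12, against 1.16% of all tested genes, and 0 passed the adjusted test. Camp, a granule peptide, had 1651 ± 124 and 1320.4 ± 75.8 CPM, and Ly6g, a neutrophil surface protein, 106 ± 20.8 and 77.0 ± 7.36 CPM (SD, n = 3 each). The marker sum was 20326, 17362 and 17693 CPM in 0Q against 14588, 15691 and 17579 CPM in 100Q. For 6 of the 12 markers 0Q replicate 3 was the lowest 0Q library, as for Itgb2l. Among them were Ltf and Mpo, a granule protein and a granule enzyme. Ltf had 4118, 2818 and 2276 CPM in 0Q and Mpo 944, 639 and 516 CPM. For the other 6, Ly6g, Camp, Elane, S100a8, S100a9 and Mmp8, 0Q replicate 2 was the lowest, where Itgb2l was high. Ly6g, for example, had 129, 87.9 and 101 CPM in 0Q. Estimates were also below 0 for 7 of 9 mast cell, basophil and eosinophil markers and above 0 for 2. Their median log2 fold change was -0.16, and 0 had an unadjusted p under 0.05 by edgeR. The lower estimates were thus not particular to neutrophil markers. The part of neutrophil content in the Itgb2l values was not tested. Relative to Itgb2 within a library, Itgb2l stood at 0.0870, 0.120 and 0.0626 in 0Q and at 0.0470, 0.0591 and 0.0625 in 100Q. The lowest 0Q value and the highest 100Q value were practically equal.

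**Figure D3:**
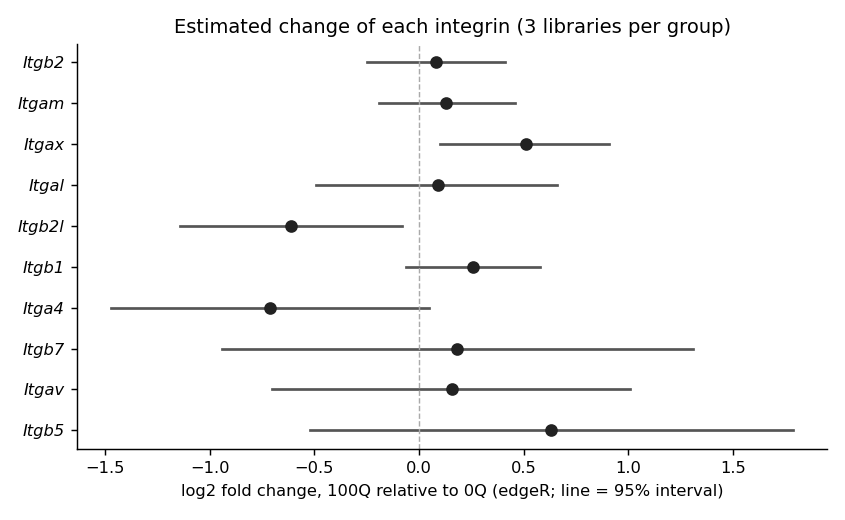
Log2 fold change of each integrin in 100Q relative to 0Q (points) with 95% intervals from edgeR (lines), 3 libraries per group. The intervals of Itgax (0.10 to 0.91) and Itgb2l (-1.14 to -0.08) lie to one side of 0 before adjustment over all genes, and the other 8 include 0.

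CD49d mRNA was low and its estimate lay on the lower side. Itga4 (ENSMUSG00000027009) had 11.9, 19.04 and 25.3 CPM in 0Q against 10.1, 11.6 and 12.4 CPM in 100Q. The highest 100Q library passed only 0Q replicate 1, so the groups overlapped by that 1 library. The log2 fold change was -0.71 (SE 0.36, 95% interval -1.47 to 0.05, unadjusted p = 0.0668 by edgeR). It was -0.95 without 0Q replicate 1 and -0.45 without 0Q replicate 3. These values rest on 53 to 235 counts per library.

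CD29 mRNA, the partner of CD49d and of many other alpha chains, was about as abundant as Itgax. Itgb1 (ENSMUSG00000025809) had 112, 141 and 124 CPM in 0Q against 156, 161 and 137 CPM in 100Q. The groups overlapped, with 0Q replicate 2 just above 100Q replicate 3. Its log2 fold change was 0.26 (SE 0.15, 95% interval -0.06 to 0.58, unadjusted p = 0.103 by edgeR), and stayed between 0.19 and 0.35 when each library was left out. Per kilobase, Itga4 reached 0.0378, 0.0482 and 0.0726 of Itgb1 in 0Q and 0.0230, 0.0257 and 0.0324 in 100Q. These groups did not overlap.

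Itgb7 (ENSMUSG00000001281), the beta chain of the gut-homing receptor alpha4beta7, had 5.10, 5.78 and 4.72 CPM in 0Q against 7.79, 6.74 and 3.49 CPM in 100Q. It rested on 17 to 66 counts per library, with the highest and the lowest level both in 100Q. The log2 fold change of 0.18 had a 95% interval from -0.94 to 1.31, which spans 0.520-fold to 2.48-fold. Itgae, whose product pairs with beta7 in mucosal dendritic cells and T cells, had 4.00 to 9.93 CPM over the 6 libraries and a log2 fold change of -0.17 (SE 0.52).

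CD51 mRNA varied most within 0Q relative to its mean. Itgav (ENSMUSG00000027087) had 6.99, 17.9 and 30.8 CPM in 0Q against 22.8, 19.4 and 19.3 CPM in 100Q, so both extremes were 0Q libraries. Its log2 fold change of 0.16 (SE 0.41) was -0.24 without 0Q replicate 1 and 0.70 without 0Q replicate 3. Itgb5 (ENSMUSG00000022817), a partner of CD51 in the uptake of dying cells and in binding of vitronectin, had 3.399, 4.51 and 6.94 CPM in 0Q against 11.8, 3.58 and 7.45 CPM in 100Q. It had the largest standard error of the 10, and its log2 fold change was 0.63 (SE 0.55, from -0.52 to 1.79 at 95%), or 0.19 without 100Q replicate 1.

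**Figure D4:**
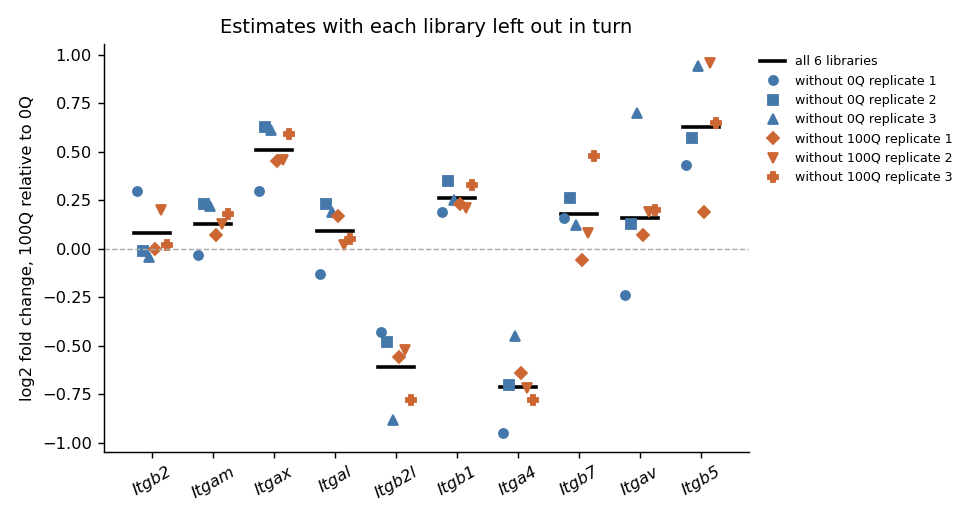
Log2 fold change of each integrin in 100Q relative to 0Q with all 6 libraries (black bars) and with each library left out in turn (symbols). Itgax stays above 0 (0.30 to 0.63) and Itgb2l and Itga4 below 0, while Itgav runs from -0.24 to 0.70.

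The 3 ratios that separated among the 13 examined, Itgax to Itgam, Itgb2l to Itgb2 and Itga4 to Itgb1, were picked out after their values were seen. Of all 45 pairs of the 10 genes, 9 had ratios without overlap between the groups (20%). The 9 shared a few genes, with Itga4 in 6 and Itgax in 3 of them, so they are not independent. Over the 881128 pairs of genes at a mean of 100 CPM or more, that share was 8.51%. Most of the 10 are below that abundance, so the shares are not directly comparable.

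**Figure D5:**
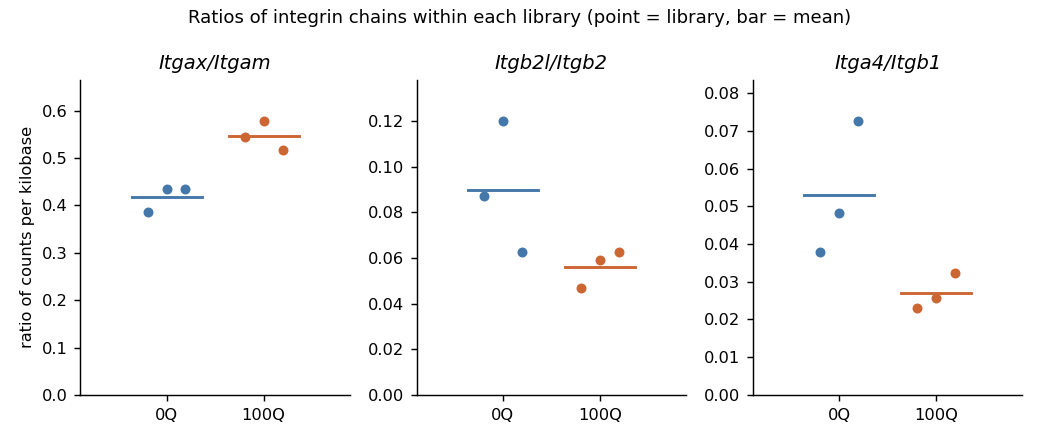
Ratio of counts per kilobase of Itgax to Itgam, Itgb2l to Itgb2 and Itga4 to Itgb1 in each library (points; bars are group means; each axis starts at 0). Itgax to Itgam is 0.386 to 0.435 in 0Q and 0.518 to 0.579 in 100Q, and for Itgb2l to Itgb2 the nearest values, 0.0626 and 0.0625, almost touch.

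The genes most like Itgax over the 6 libraries, among 2272 others at a mean of 50 CPM or more, were Atp1b3 (Pearson r of log2 CPM 0.991), a sodium pump beta subunit, Gpnmb (0.984), a glycoprotein of macrophages and dendritic cells, and Dek (0.982), a chromatin protein. For Itgam they were Pitpna (0.991), a phosphatidylinositol transfer protein, Coa5 (0.989), a cytochrome oxidase assembly factor, and Eif4b (0.980), a translation initiation factor. All 6 were lowest in 0Q replicate 1, as Itgax and Itgam were. Atp1b3 had 25.7 CPM there and 56.1 to 76.0 CPM in the other libraries, and Pitpna 60.6 CPM against 83.2 to 107 CPM. No correlation was computed without that library, and what the 6 genes share with the integrins beyond it was not tested.

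Of the other 17 integrin genes, 6 had 0 counts in every library (Itga7, Itga8, Itga9, Itga11, Itgad and Itgb6), and 5 were tested. Together the 17 summed to 43.2 to 53.4 CPM, against 1182 to 1458 CPM for the 10 genes described above. None of the 5 passed the test, and their median log2 fold change was 0.00. Itga1, a collagen-binding chain and the most abundant of them, had 12.6 ± 3.62 CPM in 0Q against 15.4 ± 3.51 CPM in 100Q (SD, n = 3 each). Itga6, a laminin-binding chain, had 11.3 ± 3.27 and 10.2 ± 1.85 CPM.

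Genes of the wider adhesion system were read from lists chosen with earlier results known. In the lists of other integrins, ligands, activators, signalling genes and membrane partners no gene had an unadjusted p under 0.05. Of 21 integrin ligands, 10 were tested and 0 passed in either direction, with a median log2 fold change of 0.09. Spp1 (osteopontin), a ligand of CD51 and CD49d integrins, was the most abundant at 3205 ± 340 CPM in 0Q against 3506 ± 409 CPM in 100Q (SD, n = 3 each). Mfge8, the bridge from dying cells to CD51, had 50.6 ± 11.8 and 63.7 ± 12.1 CPM. F11r, a junction protein that binds LFA-1, had 3.09 ± 1.27 and 1.07 ± 1.05 CPM on 77 counts in all.

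Activators and adaptors switch integrins on from inside the cell. Of 26 such genes, 25 matched, 22 were tested and 0 passed, and log2 fold changes ran from -0.94 to 1.41 around a median of 0.05. In 2 of the 22 the libraries of the groups did not overlap, where 8.24% of all tested genes had no overlap. Skap2, an adaptor of myeloid integrins, had 331 ± 40.0 CPM in 0Q against 297 ± 41.1 CPM in 100Q. Rassf5 (RAPL), which joins active Rap1 to CD11a, had 36.3, 39.1 and 36.4 CPM in 0Q against 24.9, 29.5 and 30.7 CPM in 100Q. It is 1 of the 2 without overlap, at a log2 fold change of -0.39 (SE 0.24). The other, Itgb1bp1, which encodes a protein that binds the beta1 tail, had 24.6, 22.0 and 21.1 CPM in 0Q and higher values of 25.5, 26.5 and 25.9 CPM in 100Q. Cyth1, a regulator of beta2 adhesion, had 3.59, 3.81 and 16.7 CPM in 0Q against 3.12 to 5.90 CPM in 100Q, so its 0Q mean rested on 1 library.

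Signals sent inward by bound integrins pass through ITAM adaptors and kinases. Of 22 such genes 20 were tested and 0 passed, with a median of 0.04. Fcer1g, the most abundant of them and an ITAM adaptor, had 3070.2 ± 189 CPM in 0Q against 3038 ± 72.9 CPM in 100Q. Plcg2, a phospholipase below these adaptors, had 18.1, 40.5 and 61.1 CPM in 0Q against 29.1, 20.01 and 25.4 CPM in 100Q, and its log2 fold change was -0.67 (SE 0.34). Vav3, a member of the Vav family, had 7.25 ± 4.22 and 13.03 ± 4.21 CPM. Of 9 membrane partners of integrins all were tested and 0 passed, with a median of 0.01. The tetraspanin Cd9 was the most abundant at 3602 ± 301 and 3500.2 ± 389 CPM, and Cd81, another tetraspanin, had 63.2 ± 10.8 and 70.7 ± 3.21 CPM. Plaur, the urokinase receptor, which binds CD11b and other integrins, had 49.3, 46.8 and 54.4 CPM in 0Q against 59.1, 64.9 and 63.8 CPM in 100Q. Plaur was the 1 of the 9 whose groups did not overlap, where 8.24% of all tested genes had no overlap. Its log2 fold change was 0.32 (SE 0.19, adjusted p = 0.999 by edgeR).

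The precision of these comparisons followed abundance. Data were simulated with the means, spread and library sizes of this comparison, over 10554 genes. A 2-fold change was called in 97.6% of cases at 100 CPM or more. It was called in 32.3% from 10 to 100 CPM and in 3.27% below 10 CPM. The 5 draws held 123, 449 and 428 changed genes in these classes, and 19 unchanged genes were called in all. Genes were drawn independently, so shifts shared across a library, as in 0Q replicate 1, were not reproduced. With many changed genes planted, the adjusted threshold is easier to pass than in the measured data, where no gene was called. These shares may not carry over to the measured data. Itgb2, Itgam, Itgb1 and Itgax belong to the first class by their mean, Itgb2l, Itgal, Itgav and Itga4 to the second, and Itgb5 and Itgb7 to the third. For the first 4 genes the 95% intervals of the fold change ran between 0.840 and 1.88, whereas for Itgb5 the interval ran from 0.697-fold to 3.46-fold.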

How the data were processed

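The deposited values are expected counts for every gene in each of the 6 libraries, and the authors did not normalize them. The submitters' processing notes name FastQC, STAR, RSEM and mm39 (GRCm39), and the tools' versions, annotation and strandedness are not given there. RSEM divides ambiguous reads, so related or overlapping genes are uncertain. Symbols, positions, lengths and coding sequences came from GENCODE M39, which matched 56594 of the 57132 identifiers, and every column was used. The expected counts, rounded, were tested with edgeR 4.0.16 (R 4.3.3): filterByExpr, TMM, robust quasi-likelihood fits over all tested genes, and Benjamini-Hochberg adjustment with a threshold of 0.05. Standard errors are the absolute log2 fold change over the root of F. Levels per length divided CPM by the union of annotated exons. Every pair of libraries differed by more than counting noise (chi-square per gene of 8.73 to 19.5). The fit was tested on simulated data, in 5 draws. Alternatives were DESeq2 1.42.0, limma 3.58.1 (voom), other scalings, filters and lengths, a replicate block, and leaving out single libraries. Named genes were the 10 integrins, the 3 genes most like Itgax and Itgam, and of each pathway list the most abundant tested gene and the 2 with the smallest p. Marker genes and other genes were named after their values were seen. The members and lists were chosen with earlier results of these data known.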

Additional observations from a re-analysis of the deposited data

How the results depend on the processing

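The length correction and the sum of Itgam with Gm49368 were chosen after the data were seen. Over all settings 0 of the 10 integrins were called, and the count of all genes called was 0 except with a library left out, where it ranged from 0 to 2 (2 without 0Q replicate 1, 1 without 0Q replicate 2). Genes at an unadjusted p under 0.05 numbered 309 of 10554. They were 839 of 21308 without the filter on low counts, 192 of 6255 with a minimum of 10 CPM, where Itgb7 and Itgb5 dropped out, and with a library left out between 193, lacking 100Q replicate 2, and 662, lacking 0Q replicate 2. With the length trend removed, Itga4 joined Itgax and Itgb2l at that level (-0.77, unadjusted p = 0.0429 by edgeR). With the longest transcript as length, 9 of 23 levels and ratios moved by more than 1 SD. Over 60 log2 fold changes with a library left out, 7 changed sign, none of them called, and in the other settings 1 of 78 did (Itgb7, -0.20 by limma-voom). Adjusted p-values of the 10 ran from 0.757 to 1 over the edgeR, DESeq2 and limma fits. Itgax, Itgb2l, Itga4, Itgb1 and Itgb5 changed sign in no setting. The cause of these shifts was not tested. In the fit with a replicate block, 0 genes were called; Itgax had 0.54, Itgb2l -0.56 and Itga4 -0.67. Deviations of libraries with the same number correlated at 0.07, 0.32 and -0.12, so the numbers were not taken to pair the samples. Below 10 CPM, depth limits Itgb7 and Itgb5.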
